A study of Homo sapiens with 8 samples.

Results

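Chromosome 19 of the osteosarcoma cell line U2OS was described here through its peaks of the replication protein ORCA and of methylated DNA. The members are all peaks on chromosome 19 (build hg19) in the 4 deposited peak lists, 5809 of the 98024 peaks of the series. Of these, 410 of 22469 were ORCA peaks and 5399 of 75555 were MeDIP peaks. Within the chromosome, 4 windows taken to hold its zinc finger gene clusters were set beside the rest of it. Window 1 ran from 19700000 to 24600000, window 2 from 36600000 to 38400000, window 3 from 44300000 to 45000000 and window 4 from 52300000 to 58900000. A peak belonged to a window when its midpoint lay in it. The windows held 85 ORCA peaks and 561 MeDIP peaks, and the rest of the chromosome held 325 and 4838. The windows were chosen by the peaks per Mb, the MeDIP overlap and the late-only peaks of these same lists, so every contrast between the windows and the rest is a description and carries no test.

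ORCA, also called LRWD1, binds the origin recognition complex, the protein assembly that marks sites where DNA replication can start, and it is known to associate with heterochromatin, with repressive histone marks and with methylated DNA. Origins are licensed during G1, the phase between cell division and DNA synthesis. Zinc finger genes encode DNA-binding proteins, many of them repressors of transposable elements, and lie in tandem clusters that in many cell types carry the repressive mark H3K9me3. The label of the windows was looked at through gene names and their order alone, since no gene positions of hg19 were used here. In the RefSeq gene table (GRCh38.p14), 261 of the 559 protein-coding genes with symbols starting ZNF, ZSCAN, ZFP, ZIM or ZIK lay on chromosome 19 (46.7%), and 236 of them had another one as neighbour. How many of them lie inside the windows was not examined.

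The ORCA data are chromatin immunoprecipitation and sequencing (ChIP-seq) of U2OS cells synchronised at early G1, at mid G1 and at late G1, with 1 sample for each stage. The methylation data are 1 sample of U2OS cells with no stated stage by MeDIP-seq, in which methylated DNA is immunoprecipitated before sequencing. No sample carried another genotype or treatment in the labels, the means of synchronisation was not stated, and the 4 input libraries were not analysed here. The early, mid, late and MeDIP lists held 10740, 10382, 1347 and 75555 peaks. The number of reads behind them is unknown, and the late list may have been called in another way, so numbers of peaks reflect sample and calling alike. With 1 sample in each group no difference has a replicate check. The 95% intervals given below are for counting error alone, and they treat neighbouring peaks as if they were independent.

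Chromosome 19 was rich in MeDIP peaks and close to the middle of the chromosomes in early and mid ORCA peaks. It carried 98.2 MeDIP peaks per Mb, the highest of 23 chromosomes (1 to 22 and X), ahead of chromosome 22 with 94.7 and against a median of 27.5 for the other chromosomes. The median score of its MeDIP peaks, the peak caller's own value, was 291.94, also the highest of the 23. Early ORCA peaks stood at 3.18 per Mb, 13th of 23 with a median of 3.70 for the others. Mid ORCA peaks stood at 3.33 per Mb, 12th of 23. Late ORCA peaks stood at 0.945 per Mb, 6th of 23, with a median of 0.382 for the others. Chromosome 19 thus had 29.7 late peaks for each 100 early peaks, the highest such number of the 23, with a median of 12.8 for the others. All densities used the span between the first and last peak of any list without stretches of over 1 Mb that held no peak. On chromosome 19 that span ran from 60031 to 59118380 without the stretch from 24186772 to 28237932, which left 55.0 Mb.

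MeDIP peaks of chromosome 19 seldom coincided with ORCA. An ORCA peak of any stage lay on 123 of its 5399 MeDIP peaks (2.28%), beside 8.04% over all 23 chromosomes and 8.50% on the other chromosomes. Only chromosome X was lower, with 0.832%, and the median of the other chromosomes was 6.40%. Chromosome 19 also had 30.9 MeDIP peaks for each early ORCA peak, the 2nd highest of the 23, against a median of 8.02. The part of this in the low share was not tested. In the other direction, 50 of 175 early peaks of chromosome 19 overlapped a MeDIP peak (28.6%), beside 35.3% over all 23 chromosomes. Of its mid peaks 84 of 183 overlapped one (45.9%), beside 48.6% over all. Of its late peaks 17 of 52 did (32.7%), beside 47.9% over all. Among the 23 chromosomes these shares ranked 10th for early, 8th for mid and 16th for late peaks. For the late list the difference between chromosome 19 and the other chromosomes was -15.8 percentage points (interval -27.3 to -1.99). When chromosomes 7 and 8 were left out of the others it was -5.90 points, with an interval that included 0 (-17.5 to 8.03). The median late share of the other chromosomes was 36.9%. For the early list the difference was -6.82 points (-13.1 to 0.334) and for the mid list -2.71 points (-9.84 to 4.58).

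**Figure D1:**
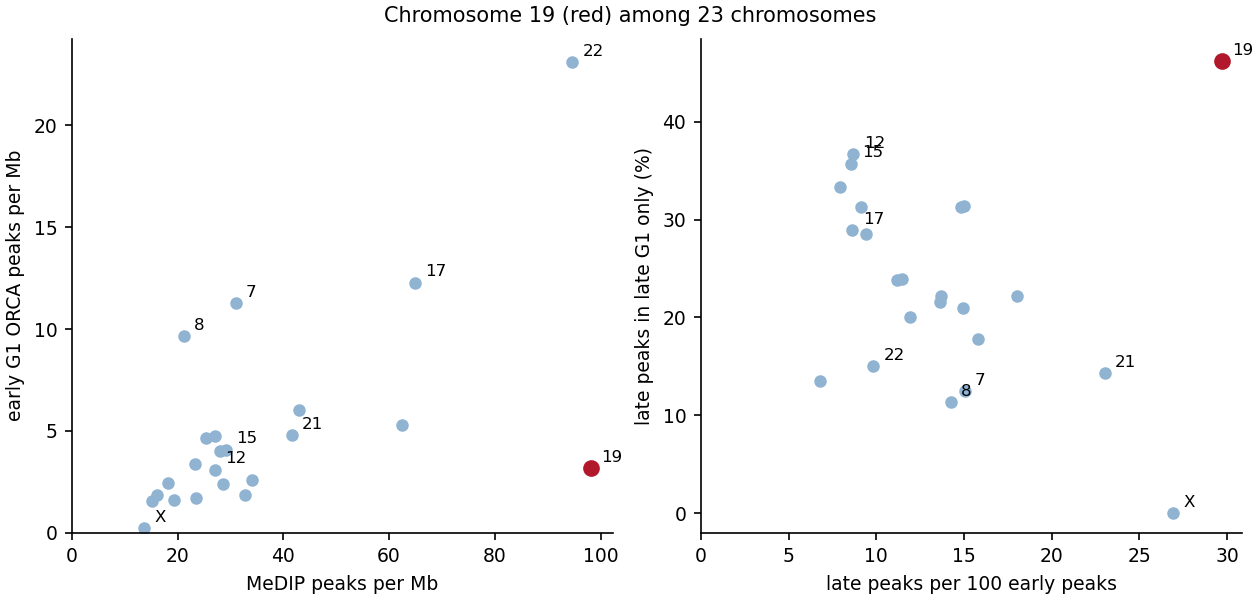
Each point is a chromosome. Left: MeDIP peaks per Mb (x axis) and early ORCA peaks per Mb (y axis), where chromosome 19 is farthest right at 98.2 and has 3.18 early peaks per Mb. Right: late ORCA peaks per 100 early ORCA peaks (x axis) and the percent of late peaks found in late G1 only (y axis), where chromosome 19 is farthest right at 29.7 and highest at 46.2%.

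Along chromosome 19 the zinc finger windows made up 13.6 Mb of the 55.0 Mb (24.7%). Their part of each list was 18.3% for early, 18.0% for mid and 38.5% for late ORCA, and 10.4% for MeDIP. Early peaks numbered 2.36 per Mb in the windows (1.61 to 3.32) and 3.45 in the rest (2.91 to 4.07), a ratio of 0.682 (0.450 to 1.01). Mid peaks numbered 2.43 per Mb in the windows (1.67 to 3.41) and 3.62 in the rest (3.07 to 4.25), a ratio of 0.671 (0.445 to 0.983). Late peaks ran the other way, with 1.47 per Mb in the windows (0.899 to 2.27) and 0.773 in the rest (0.528 to 1.09), a ratio of 1.91 (1.03 to 3.44). MeDIP peaks were much sparser in the windows, with 41.3 per Mb there (37.9 to 44.9) and 116.8 in the rest (113.5 to 120.1), a ratio of 0.354 (0.323 to 0.386).

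These ratios leaned on single windows. Without window 2 the early ratio was 0.442 and the late ratio 1.10 (0.482 to 2.29), while without window 4 the late ratio was 2.78 (1.40 to 5.28) and the MeDIP ratio 0.170. The number of peaks also differed from the bases they cover. Early peaks covered 3.98 kb per Mb in the windows and 2.03 in the rest, so that the early ratio by bases was 1.96. Window 2 had 26.2 kb per Mb of early peaks, and windows 1, 3 and 4 were each below the rest. Mid peaks covered 2.52 kb per Mb in the windows and 2.37 in the rest, and late peaks 2.01 in the windows and 0.611 in the rest, a late ratio of 3.30. MeDIP peaks covered 40.5 kb per Mb in the windows and 121.0 in the rest.

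**Figure D2:**
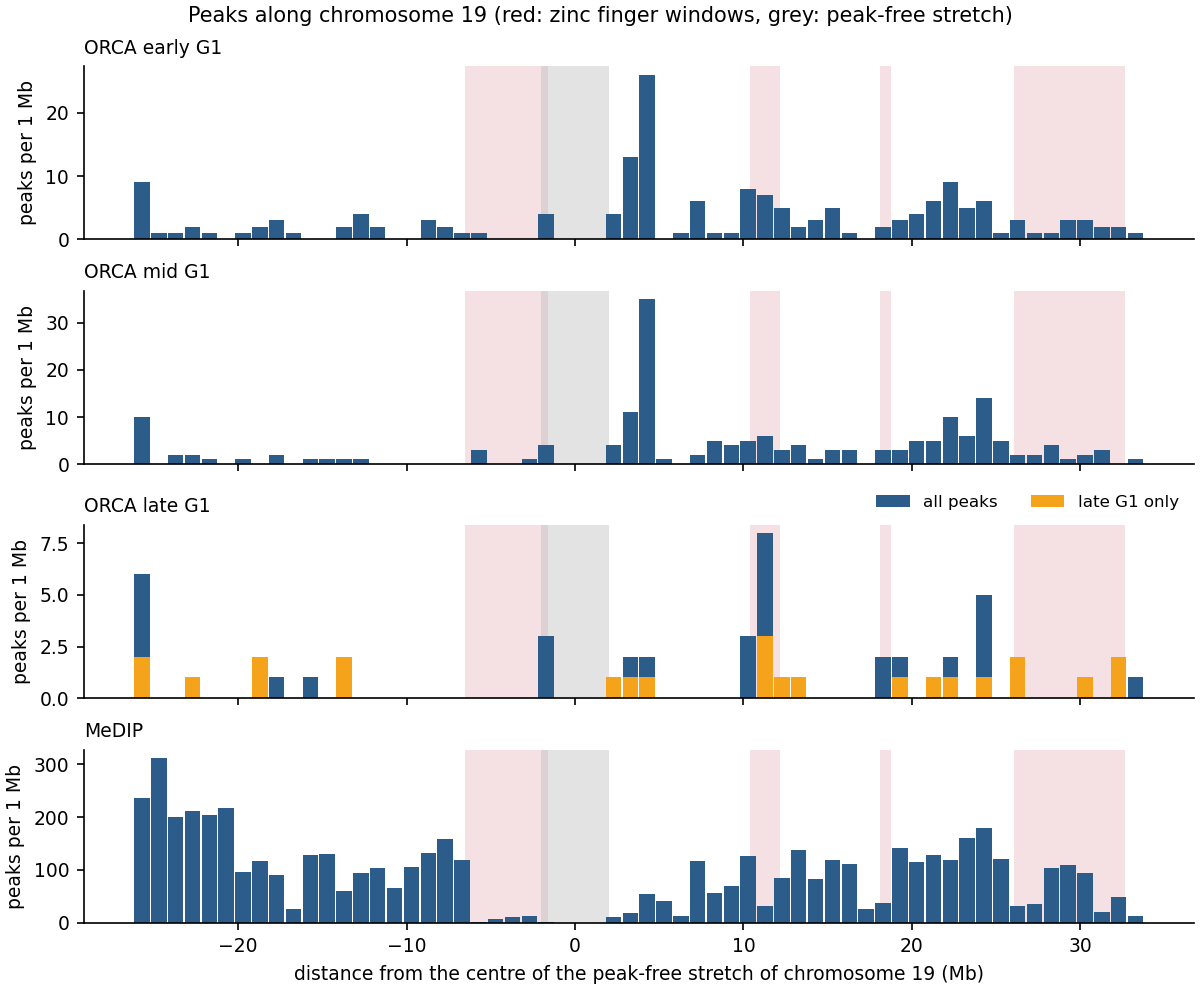
Number of peaks in each 1 Mb bin (y axes) of the early, mid and late ORCA lists and the MeDIP list along chromosome 19, with distance from the centre of the peak-free stretch in Mb (x axis). Red shading marks the 4 zinc finger windows, and orange in the late panel marks peaks found in late G1 only. The densest late bin, with 8 peaks, lies in window 2, and the densest early and mid bin, with 26 and 35, lies in the rest of the chromosome.

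**Figure D3:**
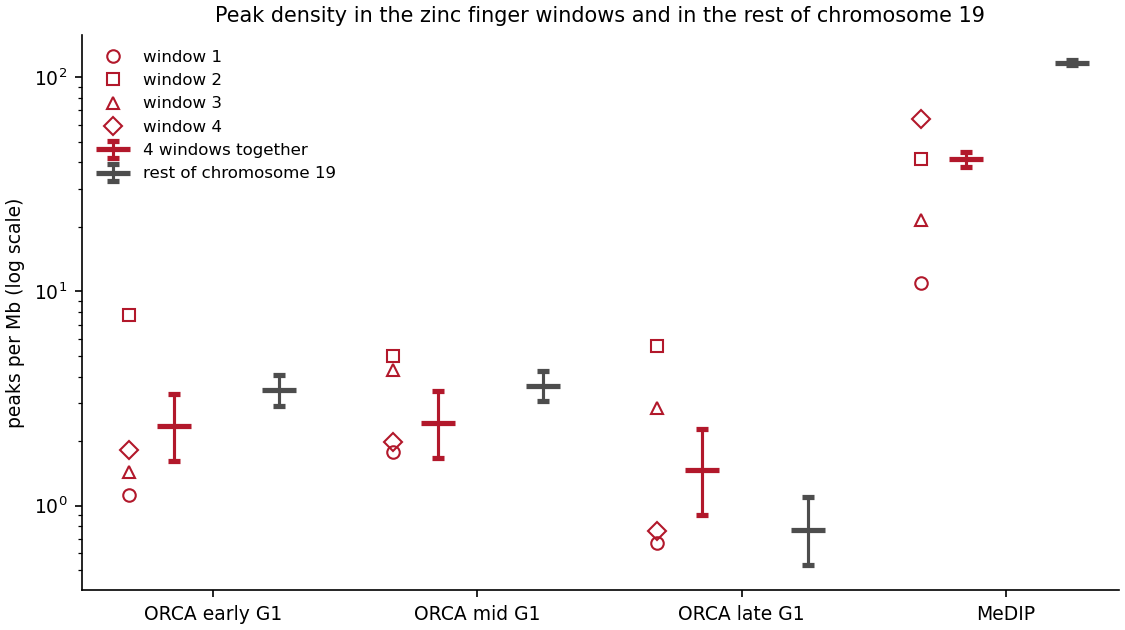
Peaks per Mb (y axis, log scale) of each list (x axis) in each zinc finger window (open symbols), in the 4 windows together (red) and in the rest of chromosome 19 (grey). Bars on the last 2 are 95% Poisson intervals for counting error only. Late ORCA peaks reach 5.56 per Mb in window 2, and MeDIP peaks are below the rest of the chromosome in every window.

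The 4 windows did not resemble each other. Window 2 was the ORCA-rich one, with 14 early, 9 mid and 10 late peaks in 1.80 Mb, or 7.78, 5 and 5.56 per Mb. Its ORCA peaks also scored high for their lists, with median scores of 252.95 early, 780.41 mid and 218.47 late, against medians of 64.79, 67.81 and 71.5 in the rest of the chromosome. Of its 75 MeDIP peaks 21 overlapped an ORCA peak (28.0%), beside 1.90% in the rest of the chromosome. Most of these 21 lay on the 2 evenly spaced stretches described below. Window 3, the shortest, held 1 early, 3 mid and 2 late peaks and 15 MeDIP peaks.

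Window 4 was the longest and had the most MeDIP peaks of the windows, 422 or 63.9 per Mb. Its 12 early, 13 mid and 5 late ORCA peaks gave 1.82, 1.97 and 0.758 per Mb. Of these 30 peaks 28 had no overlap at another stage (93.3%), namely 11 of 12 early, 12 of 13 mid and 5 of 5 late. Over all chromosomes the share with no such overlap was 66.2% for the early list, 65.4% for mid and 20.6% for late. The same was true of 3 of 16 ORCA peaks in window 1, 10 of 33 in window 2 and 1 of 6 in window 3. The best early peak of window 4 had a score of 92.18 and its best mid peak 167.66, and neither was among the 5 highest of its list in the windows.

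Window 1 was poor in MeDIP peaks, with 49 in 4.49 Mb or 10.9 per Mb. Each 1 Mb bin from 20 to 24 Mb held between 2 and 12. Beside the peak-free stretch, the 11 longest stretches of chromosome 19 with no MeDIP peak measured 239.84 to 597.1 kb, and 8 of them lay in the windows. The longest, from 20585520 to 21182607, lay in window 1. Of the 16 ORCA peaks of window 1, 11 lay in a group of only 2.22 kb, from 24183466 to 24185690, next to the peak-free stretch. This group had 4 early, 4 mid and 3 late peaks of 179 to 433 bp with scores of 53.93 to 154.26, and none overlapped a MeDIP peak. It gave 3 of the regions of the chromosome that were present at all 3 stages.

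Many of the high-scoring peaks of window 2 lay on 2 stretches on which MeDIP peaks followed each other at an even spacing and ORCA peaks spread over many of them. These stretches were chosen after their values were seen. The search covered the MeDIP peaks on chromosomes 1 to 22 and X. It looked for runs of at least 8 peaks with spacings within 5% of the run's median. Only runs with a median spacing of 1 to 10 kb were kept. This gave 4 runs, 2 of them on chromosome 19, both in window 2. The first, from 36758037 to 36799382, held 17 MeDIP peaks at a mean spacing of 2533 ± 18.4 bp (SD over 16 spacings). The second, from 37761020 to 37797196, held 15 at 2528 ± 21.1 bp (SD over 14 spacings). The 2 stretches start 1003 kb apart, and their spacings differ by 4.23 bp, less than either SD.

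ORCA covered the 2 stretches differently by stage. On the first stretch early ORCA peaks covered 55.6% of the bases and 10 of the 17 MeDIP peaks. Mid peaks covered 5.60% of it and late peaks 4.73%, each touching 1 MeDIP peak. The early coverage came mainly from a peak from 36776407 to 36783420 (score 1446.32, the highest early score in the windows) and from one directly after it, from 36783424 to 36800154, which was 16731 bp wide. Neither a mid nor a late peak overlapped either of these early peaks. On the second stretch early peaks covered 49.3%, mid peaks 49.5% and late peaks 38.0% of the bases, and 8, 8 and 7 of the 15 MeDIP peaks. Apart from 1 late-only peak, all 3 lists sat on the same side of the second stretch. There the early peak from 37774528 to 37779245 scored 951.93, the mid peak from 37774480 to 37779304 scored 1388.02 and the late peak from 37770692 to 37774358 scored 475.69. How reads that match several places were treated is not given in the sources used here, and whether the evenly spaced units share sequence was not examined. With both stretches and the ORCA peaks on them left out, the density ratio of windows over rest was 0.515 early, 0.511 mid and 1.25 late (0.600 to 2.44).

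**Figure D4:**
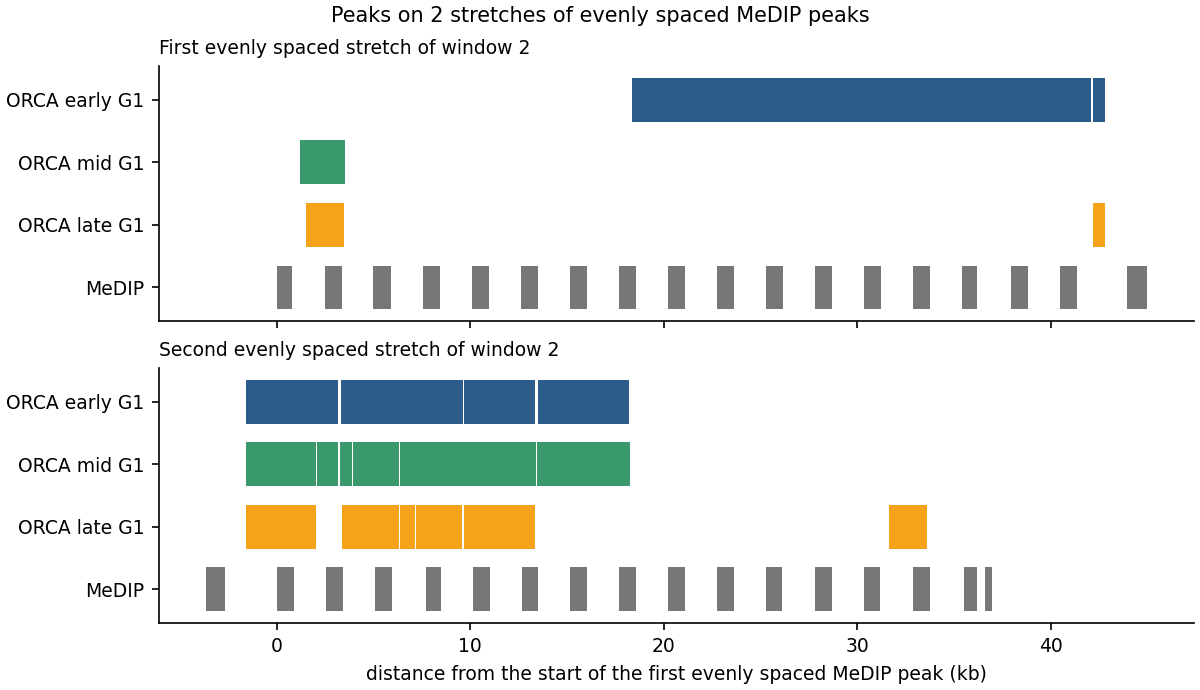
Early, mid and late ORCA peaks and MeDIP peaks (rows) on the 2 evenly spaced stretches of window 2, with distance from the first evenly spaced MeDIP peak in kb (x axis). Early ORCA covers 55.6% of the first stretch and mid and late ORCA 5.60% and 4.73%, while on the second stretch the 3 stages cover 49.3%, 49.5% and 38.0%.

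The share of ORCA peaks on MeDIP peaks differed between the windows as a whole and the rest by amounts whose intervals all included 0. Of the early peaks 11 of 32 in the windows overlapped a MeDIP peak (34.4%, 20.4 to 51.7) and 39 of 143 in the rest (27.3%, 20.6 to 35.1), a difference of 7.10 points (-8.90 to 25.6). Of the mid peaks 15 of 33 in the windows did (45.5%) and 69 of 150 in the rest (46.0%), a difference of -0.545 points (-18.1 to 17.7). Of the late peaks 7 of 20 in the windows did (35%) and 10 of 32 in the rest (31.2%), a difference of 3.75 points (-20.4 to 29.2). Among early and late peaks the overlap in the windows was gathered in window 2, with 9 of 14 early and 6 of 10 late. Mid overlap was more spread. It was seen for 7 of 9 mid peaks in window 2. Windows 1, 3 and 4 had 1 of 8, 2 of 3 and 5 of 13. With the 2 evenly spaced stretches left out, the difference between windows and rest was -14.8 points early, -14 points mid and -23.6 points late, again with intervals that included 0. Counting peaks at most 1 kb apart as overlapping gave 21.2 points early (2.15 to 37.7). Seen from the MeDIP list, 31 of 561 peaks in the windows overlapped ORCA (5.53%, 3.92 to 7.74) and 92 of 4838 in the rest (1.90%, 1.55 to 2.33). Of these 31 peaks 21 lay in window 2, most of them on the 2 evenly spaced stretches. The other windows had 1 of 49 (2.04%, window 1), 2 of 15 (13.3%, window 3) and 7 of 422 (1.66%, window 4). The higher share in the windows thus rested mainly on these stretches. MeDIP peaks that overlapped ORCA had higher scores than those that did not, with medians of 1796 and 280.7 in the windows and of 1037 and 285.7 in the rest. In the windows most of the overlapping peaks were those of the 2 stretches, whose MeDIP peaks had median scores of 2274.16 and 1309.5.

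A larger share of early and mid peaks recurred at another stage in the windows than in the rest. Of the early peaks 15 of 32 in the windows overlapped a mid or late peak (46.9%) and 39 of 143 in the rest (27.3%), beside 33.8% over all chromosomes, and the difference was 19.6 points (1.79 to 37.5). Of the mid peaks 16 of 33 in the windows overlapped an early or late peak (48.5%) and 45 of 150 in the rest (30%), beside 34.6% over all chromosomes, and the difference was 18.5 points (0.720 to 36.1). With the short late list, 9 of 32 early peaks in the windows shared a base (28.1%) and 10 of 143 in the rest (6.99%), beside 8.91% over all chromosomes, a difference between windows and rest of 21.1 points (7.46 to 38.7). Of the mid peaks 10 of 33 in the windows shared a base with a late peak (30.3%) and 15 of 150 in the rest (10%), beside 9.53% over all chromosomes. By window 1, 2 and 3, the 9 early peaks were 3, 5 and 1 and the 10 mid peaks 3, 5 and 2. None of the 12 early and 13 mid peaks of window 4 overlapped a late peak. Those of window 1 lay in the short group next to the peak-free stretch. Most of those of window 2 lay on the second evenly spaced stretch, so these shares rest on few places. The differences in recurrence at any other stage rested on which windows were counted. Without window 4 they were 42.7 points early and 45.0 points mid. Without window 2 they were 11.6 points early (-8.55 to 35.1) and 3.33 points mid (-13.9 to 24.4), and without window 1 9.76 points early (-7.60 to 29.6). Without the 2 evenly spaced stretches they were 10.2 points early (-7.89 to 31.1) and 6.00 points mid (-11.6 to 26.6), and without the widest 5% of peaks 6.46 points mid (-10.5 to 26.1).

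Late-only peaks, those sharing no base with an early or mid peak, made up a larger part of the late list on chromosome 19 than on any other chromosome. They were 24 of its 52 late peaks (46.2%, 33.3 to 59.5), beside 20.6% over all chromosomes and 250 of 1276 on the other chromosomes (19.6%). The difference was 26.6 points (13.5 to 40.1). Chromosome 12 came next with 36.7%. In number, the 24 late-only peaks of chromosome 19 equalled those of chromosome 17 and were fewer than the 30 of chromosome 7. The excess was present among high and low scores alike. Among late peaks with a score of at least the list's median of 69.8, 12 of 32 on chromosome 19 were late-only (37.5%) and 67 of 633 on the other chromosomes (10.6%). Among those under it, 12 of 20 on chromosome 19 were late-only (60.0%) and 183 of 643 elsewhere (28.5%).

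Within chromosome 19 the late-only peaks were found both in the zinc finger windows and in the rest. They were 8 of 20 late peaks in the windows (40%, 21.9 to 61.3) and 16 of 32 in the rest (50%, 33.6 to 66.4), a difference of -10.0 points (-34.4 to 16.9). This difference was 18.8 points among higher-scoring late peaks (-14.1 to 46.6) and 14.7 points without the widest 5% (-13.9 to 39.0), so that its direction is not settled. By length, there were 0.589 late-only peaks per Mb in the windows and 0.386 in the rest. Among merged ORCA regions, late-only ones were 8 of 57 in the windows (14.04%, 7.29 to 25.3) and 16 of 269 in the rest (5.95%, 3.69 to 9.44), beside 1.58% over all chromosomes. Windows 1 and 3 had none among 3 and 2 late peaks, window 2 had 3 of 10, and window 4 had 5 of 5. The late-only peaks of the windows had higher scores, with a median of 118.9 (58.64 to 354.89) against 60.38 (50.75 to 135.58) in the rest. They also lay farther from ORCA peaks of the other stages, at a median of 104 kb in the windows and 12.3 kb in the rest. At the edge of the definition, the closest late-only peak lay 7 bp from an early or mid peak and the next one 688 bp, while the smallest overlap of a shared late peak was 81 bp.

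**Figure D5:**
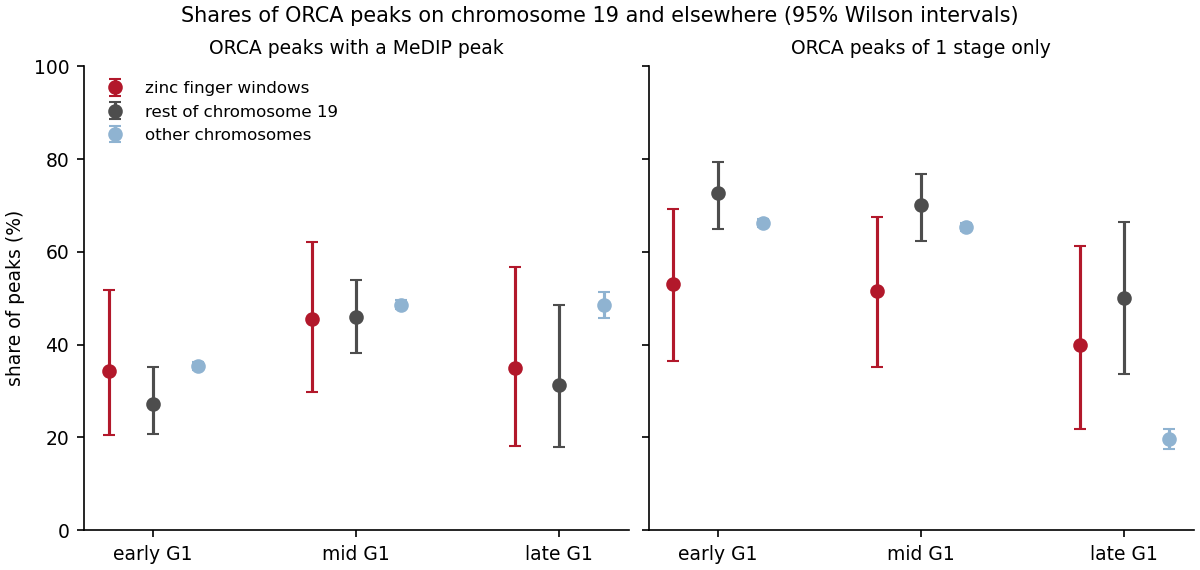
Percent of early, mid and late ORCA peaks (y axis) that overlap a MeDIP peak (left) or that were found at 1 stage only (right), in the zinc finger windows (red), the rest of chromosome 19 (grey) and the other chromosomes (blue). Bars show 95% Wilson intervals for counting error only. Late-only peaks make up 40% of late peaks in the windows, 50% in the rest of chromosome 19 and 19.6% on the other chromosomes.

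The 8 late-only peaks of the windows fell into a group in window 2 and a group in window 4. In window 2 the peak from 37618664 to 37619913 (score 279.14) lay 139.5 kb from any early or mid peak and 67.2 kb from any MeDIP peak. The peak from 37792652 to 37794634 (240.79) lay at the far end of the second evenly spaced stretch, overlapped a MeDIP peak and was 13.35 kb from the nearest early or mid peak. The peak from 37904092 to 37904958 (115.29) lay 124.8 kb from one. The strongest of the 8, from 58772981 to 58774305, was in window 4, had a score of 354.89, overlapped a MeDIP peak and lay 132.6 kb from the nearest early or mid peak. The other 4 of window 4 started at 52618619, 52977762, 56934893 and 58639274, with scores of 72.81, 58.64, 122.48 and 95.1, and none overlapped a MeDIP peak. In the rest of the chromosome the highest late-only scores were 135.58, from 394875 to 395767, and 126.88, from 12060042 to 12060900, which lay 842.1 kb from an early or mid peak.

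The strongest late peak in the windows was not late-only. It ran from 44980506 to 44982098 in window 3, its midpoint 18.7 kb inside the end of the window, with a score of 1173.58 and no MeDIP overlap. The mid peak inside it, from 44980946 to 44981379, had a score of only 68.14, and no early peak overlapped it. By rank in its list the late peak was among the top 2.03% and the mid peak at 52.9%. Just outside the windows, the nearest ORCA peaks by midpoint were 2 early peaks. One, from 58906906 to 58907546 (score 77.05), had its midpoint 7.23 kb beyond window 4. The other, from 38413487 to 38413889 (54.43), had its midpoint 13.7 kb beyond window 2.

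Merging overlapping ORCA peaks gave 57 regions in the windows and 269 in the rest of the chromosome. Of these, 6 in the windows (10.5%, 4.91 to 21.1) and 9 in the rest (3.35%) were present at all 3 stages, beside 3.94% over all chromosomes. In the windows they were the 3 regions next to the peak-free stretch, the regions from 37759438 to 37763094 and from 37764315 to 37774400 on the second evenly spaced stretch, and a region from 44914411 to 44915952 in window 3. In the rest, the region from 36066334 to 36066981 ranked first, with peak scores of 293.47 early, 577.4 mid and 312.01 late. The region from 480234 to 481930 held the strongest mid peak (635.58) and the strongest late peak (1103.93) outside the windows.

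The MeDIP peaks of highest score overlapped ORCA in few cases, but in the rest of the chromosome more often than all MeDIP peaks there. Of MeDIP peaks with a score of at least 3100, 2 of 64 in the windows overlapped an ORCA peak of any stage (3.12%), beside 5.53% of all MeDIP peaks there. In the rest 28 of 480 did (5.83%), beside 1.90% of all MeDIP peaks there. Of the 64 in the windows 60 had a score of exactly 3100, so the score does not order them. In the windows the highest scores were 3152.41, from 36603504 to 36604968, and 3145.03, from 44302307 to 44303273. In the rest they were 3216.43, from 3687637 to 3688951, and 3215.9, from 3694192 to 3695746.

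Outside the windows ORCA peaks were dense in some places, though many of them lay elsewhere. The 2 Mb from 29 to 31 Mb, close to the far side of the peak-free stretch, held 39 early peaks (22.3% of those on the chromosome) and 46 mid peaks (25.1%), or 19.5 and 23 per Mb. Late peaks were far fewer there, with 4 (7.69%), and the 72 MeDIP peaks gave 36.0 per Mb. Without these 2 Mb the windows held early peaks at 0.893 and mid peaks at 0.921 times the density of the rest. The first bin of the chromosome, up to 1 Mb, had 9 early, 10 mid and 6 late peaks beside 237 MeDIP peaks. From 50 to 51 Mb there were 6 early, 14 mid and 5 late peaks.

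The long stretch from 1 to 19 Mb had many MeDIP peaks and few ORCA peaks. It held 2455 MeDIP peaks, or 136.4 per Mb, with 25 early, 12 mid and 7 late ORCA peaks, or 1.39, 0.667 and 0.389 per Mb. The bin from 1 to 2 Mb had the most MeDIP peaks, 312, and 1 ORCA peak. Across 57 bins of 1 Mb, those inside the peak-free stretch left out, early and mid counts went together (Pearson's r 0.902, Spearman's rho 0.644), while early and MeDIP counts did not (r 0.0044, rho 0.153). Late counts followed early counts less closely (r 0.457, rho 0.598). These values are descriptions over bins of the same lists, which share the sequence of the chromosome and whatever limits the mapping of reads to it.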

How the data were processed

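Per the submitters' processing notes, reads were handled with Trimmomatic and Bowtie 0.12.7 on GRCh37/hg19. The authors deposited 1 peak list for each of the 4 immunoprecipitated samples, with a start, an end and a score per peak. The score is the authors' own value per peak, at least 50 in all lists, and was used here only to order, filter and describe peaks within a list. The peak caller's version and settings, the control used and the read depth are not given in the sources used here, and the late list's caller label differs from that of the early and mid lists. The 4 inputs were not analysed here.

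Starts were converted to count from 1. Only peaks on chromosomes 1 to 22 and X entered (10666 early, 10341 mid, 1328 late, 74497 MeDIP). Overlap meant at least 1 bp. Shares have Wilson intervals and their differences Newcombe intervals; densities have Poisson intervals and their ratios exact conditional binomial intervals, all 95%. Scripts used Python 3.11.15, pandas 2.3.3 and scipy 1.17.1, and were tested on simulated peaks. No test was run, since each group has 1 sample and the windows came from these data: members, windows and measures were chosen with earlier results of these data known. Named peaks were, in each list, the 5 of highest score in the windows and the 5 in the rest, every late-only peak of the windows, the best-ranked regions found at all 3 stages, the densest bins and the best peak of each window; others named were chosen after their values were seen. Genes at peaks, gene groups and sequence content are not reported, since no gene positions or sequence of hg19 were used here. Alternatives covered score, width, overlap, list length, windows left out, span and covered bases.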

Additional observations from a re-analysis of the deposited data

Results flagged for a closer look

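Stages differed in the direction of their density ratio between the zinc finger windows and the rest of chromosome 19. The ratio was 0.682 for early and 0.671 for mid ORCA peaks, fewer per Mb in the windows, and 1.91 for late ORCA peaks, more per Mb in the windows. By bases covered all 3 ratios were above 1, at 1.96 early, 1.06 mid and 3.30 late. For early and mid peaks this rested on window 2. Early peaks covered 26.2 kb per Mb there, against 0.369, 0.706 and 0.735 in windows 1, 3 and 4 and 2.03 in the rest. Mid peaks covered 12.4 kb per Mb there, against 0.791, 3.28 and 0.914 in windows 1, 3 and 4 and 2.37 in the rest. The late ratio by number of peaks was 1.10 without window 2 (0.482 to 2.29) and 1.25 without the 2 evenly spaced stretches (0.600 to 2.44). The difference between stages was not tested, since each stage has 1 sample and the windows were chosen from these lists. The late list held 1347 peaks and the early and mid lists 10740 and 10382, and the part of list length in the difference was not tested.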

How the results depend on the processing

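Of 136 alternative values for 12 results, 119 stayed within the counting interval of the reported value and 17 left it or changed the direction of a value whose interval excluded no difference. Counted by direction alone, 18 values in 6 results lay on the other side of no difference from the reported value, most of them for MeDIP and late-only shares. By bases covered, the density ratio of windows over rest was 1.96 early and 1.06 mid, both turned round from below 1. Most of the bases covered in the windows lay in window 2. Leaving out window 2 gave 0.442 early, and the difference in MeDIP share became -16.2 points early and -21.2 late. For MeDIP peaks the ratio was 0.482 without window 1 and 0.170 without window 4. Without window 4 the difference in recurrence at another stage was 42.7 points early and 45.0 mid, against 11.6 and 3.33 without window 2, and 10.2 and 6.00 without the 2 evenly spaced stretches. The difference in MeDIP share was -11.1 points early without the widest 5% of peaks, 20.8 mid among higher-scoring peaks, and -20.8 late at equal peak widths. With early and mid lists of the late list's length it was 46.4 and 37.5 points. Without the 2 evenly spaced stretches, an alternative chosen after seeing the data, it was -14.8 early and -23.6 late. The late-only difference was 18.8 points among higher-scoring peaks and 14.7 without the widest 5%. The causes were not tested. The late density ratio ran from 1.10 without window 2 to 3.30 by bases covered, and the late-only difference between chromosome 19 and the others from 21.1 to 31.5 points. The difference in MeDIP share of late peaks between chromosome 19 and the others ran from -24.1 to -5.90 points. Several of its intervals included 0. No paired analysis was possible because each group has 1 sample, so no replicate could be left out either. Windows drawn from annotated zinc finger genes were not run, for want of gene positions in that build here. Depth is unknown, and counts in the late list limit what it can show.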

Other observations

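The other 2 runs of evenly spaced MeDIP peaks found by the search had no ORCA peak at any stage. One on chromosome 1, from 228743928 to 228777044, held 15 MeDIP peaks at a mean spacing of 2232 ± 17.1 bp (SD over 14 spacings), all with a score of 3100. One on chromosome X, from 120064579 to 120119791, held 12 at 4874 ± 82.4 bp (SD over 11 spacings), with scores of 327.52 to 527. The 2 runs on chromosome 19 together held 32 MeDIP peaks with scores of 132.44 to 2852.96. ORCA peaks of all 3 stages lay on both of them. This is a description of 1 sample per stage, with no test.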
